A study of Homo sapiens with 9 samples.

Results

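The replication-dependent histone genes supply the H1, H2A, H2B, H3 and H4 proteins that package newly made DNA. They were picked by symbol alone, as every gene named H2AC, H2BC, H3C or H4C plus a number, or H1-1 to H1-5, which gave 68 of the 20460 genes in the file. There were 5 H1, 17 H2A, 18 H2B, 13 H3 and 15 H4 genes, of which 54 lie on chromosome 6, 13 on chromosome 1 and 1 on chromosome 12. Where a gene had several rows, the row with the highest mean over the 9 libraries was kept.

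RNA came from PC9, a human lung adenocarcinoma line driven by a mutant EGFR, that carried the FUCCI4 cell cycle reporter with mKO2-CDT1 and Clover-GMNN. Cells were untreated (day 0) or had been kept in 500 nM osimertinib, an EGFR inhibitor, for 28 days (day 28). After glyoxal fixation, G1, S and G2 cells were sorted on DNA content and then on the reporter, and their RNA was made into strand-specific poly(A) libraries. Clones 1 and 7 gave a G1 library each at both days and an S library each at day 0, and clone 1 alone gave the day 0 G2, day 28 S and day 28 G2 libraries. No label says that libraries were cultured apart, so p-values measure the spread between these libraries, which may be technical. In bulk RNA, fewer cells of a kind and less RNA per cell cannot be told apart.

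The main mRNA of a replication-dependent histone gene does not end in a poly(A) tail. It ends just after a short stem-loop that the stem-loop binding protein SLBP holds, it is made mainly in S phase, and it is degraded when replication stops. Some of these genes also make longer, polyadenylated transcripts, a form described in differentiated and non-dividing cells. Poly(A) selection favours the tailed form, so a level given here is not the total level of a histone mRNA.

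To show the signal at which the untailed form ends, the stem-loops were read from the GENCODE v29 transcripts of the members. The pattern of GG, any 3 bases, TT, any base, T, any base, A, any 3 bases, CC, on the transcribed strand and within 100 bases after the stop codon, was present in 29 of the 32 members whose transcripts hold at least 40 bases after the stop. It was present in 34 of 18249 other coding genes, or 0.186%. The sequences are printed 5′ to 3′ as DNA letters, with the loop in capitals and the stems in lower case.
Form of 15 members, among them H2AC6, H2AC25, H2BC18 and H3C10: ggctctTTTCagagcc
Form of H4C2, H4C5, H4C8, H4C11 and H4C16: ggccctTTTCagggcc
Form of H2BC4, H2BC5, H2BC7 and H3C8: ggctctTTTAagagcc
Form of H4C9, H4C14 and H4C15: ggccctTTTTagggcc
Form of H3C6: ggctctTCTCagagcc
Form of H2AC11: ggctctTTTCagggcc
Among these 29 members, the H4 forms share a stem that differs from the stem common to most of the H2A, H2B and H3 genes. In 23 of the 29 members an annotated transcript ran 100 or more bases past the stem-loop, and in 16 of those 23 the transcript's last 40 bases held AATAAA or ATTAAA, the letters of a poly(A) signal. GENCODE gives no bases after the stop for H1-2 and H2BC12, so no stem-loop is printed for them.

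The libraries held 8.83 to 108.7 M (mega) reads over coding spans, on average 43.0 M, which is above the depth the labels state, for a reason they do not give. All 6 epithelial markers had reads in every library, with a sum of 11966 to 29589 RPM (reads of a gene per M reads of the library). The 5 leukocyte markers summed to 0.304 to 2.66 RPM, and the 6 fibroblast and endothelial markers to 19.2 to 53.1 RPM, mostly COL1A1. The sum of 12 G2 and mitosis genes was 503 and 1222 RPM in day 0 G1, 171 and 110 RPM in day 28 G1, 1859 to 2862 RPM in the 3 S libraries and 6337 and 7248 RPM in the 2 G2 libraries. The sum of 14 S phase entry genes did not set S apart from G1 at day 0, with 2038 and 1833 RPM in G1, 2211 and 1668 RPM in S and 925 RPM in G2, and their median S against G1 difference at day 0 was -0.18. At day 28 these S phase entry genes summed to 691 and 358 RPM in G1, 1959 RPM in S and 587 RPM in G2.

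The 68 members together held 25847 reads, and 1 gene, H1-2, held 48.5% of them. In day 0 G1 the members summed to 52.5 RPM in clone 1 and 47.1 RPM in clone 7. In day 0 S they summed to 35.1 and 21.8 RPM, and in day 0 G2 to 43.8 RPM. At day 28 the sums were 109 and 245 RPM in G1, 40.1 RPM in S and 53.3 RPM in G2. The day 28 G1 libraries therefore held the most histone reads, 2.08 times (95% counting interval 1.996 to 2.18) the day 0 G1 value in clone 1 and 5.20 times (4.71 to 5.75) in clone 7. In each clone and day with both phases, S was below G1, at 0.669 (0.633 to 0.706) and 0.463 (0.409 to 0.525) times G1 at day 0 and 0.367 (0.345 to 0.389) times at day 28. These exact intervals cover counting error only, since the reads carry no molecular identifiers, and no test was made on a sum over chosen genes. Without H1-2 the day 28 to day 0 ratio in G1 was 1.86 (1.75 to 1.97) in clone 1 and 3.66 (3.19 to 4.22) in clone 7. The direction in G2, higher at day 28, turned with median-of-ratios scaling (53.0 at day 0 and 46.9 at day 28), with the deposited scaling (51.6 and 49.3) and with the lowest row per gene (40.3 and 38.6). In the same day 28 G1 libraries the cycle genes were lower: limma called 12 of the 14 S phase entry genes and 11 of the 12 G2 and mitosis genes lower in G1 at day 28, beside 19.1% of all tested genes, and the part of this in the histone reads was not tested.

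**Figure D1:**
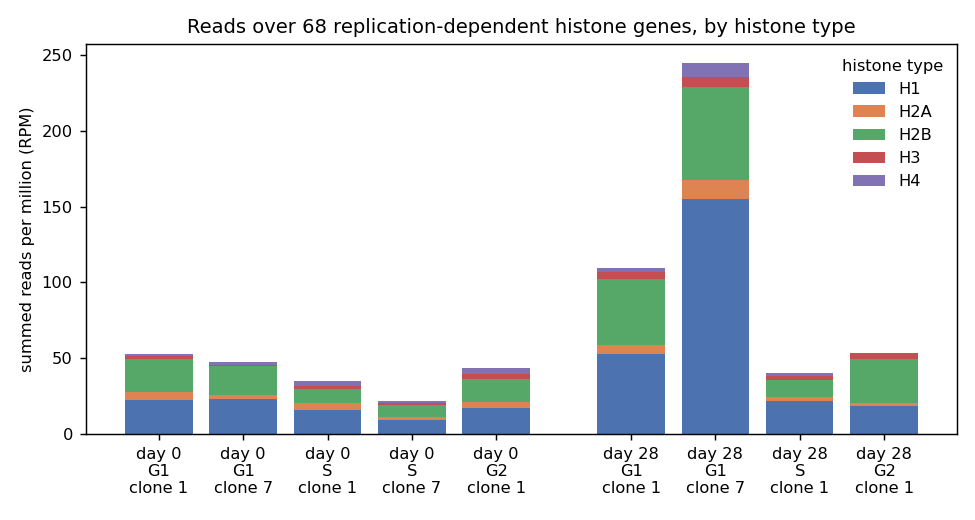
Summed RPM over the 68 histone genes in each of the 9 libraries, stacked by histone type. The day 28 G1 bars, at 109 and 245, are the tallest, and H1 and H2B fill most of every bar.

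Reads were unevenly spread over the family. No read was found in 8 members (H1-1, H2AC1, H3C7, H3C15, H4C6, H4C7, H4C14 and H4C15), 10 had 1 to 9 reads over all libraries, 28 had 10 to 99, 17 had 100 to 999 and 5 had 1000 or more. Per kilobase of coding span the mean levels were 56.6 RPKM (RPM per kilobase) for H1-2, 20.6 for H2BC12 and 17.8 for H2BC5. The next were H2AC6 at 4.38 RPKM, H4C8 at 2.59 and H4C5 at 2.32. The 3 leading genes thus stood several-fold above every H2A, H3 and H4 gene on a per-length scale.

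**Figure D2:**
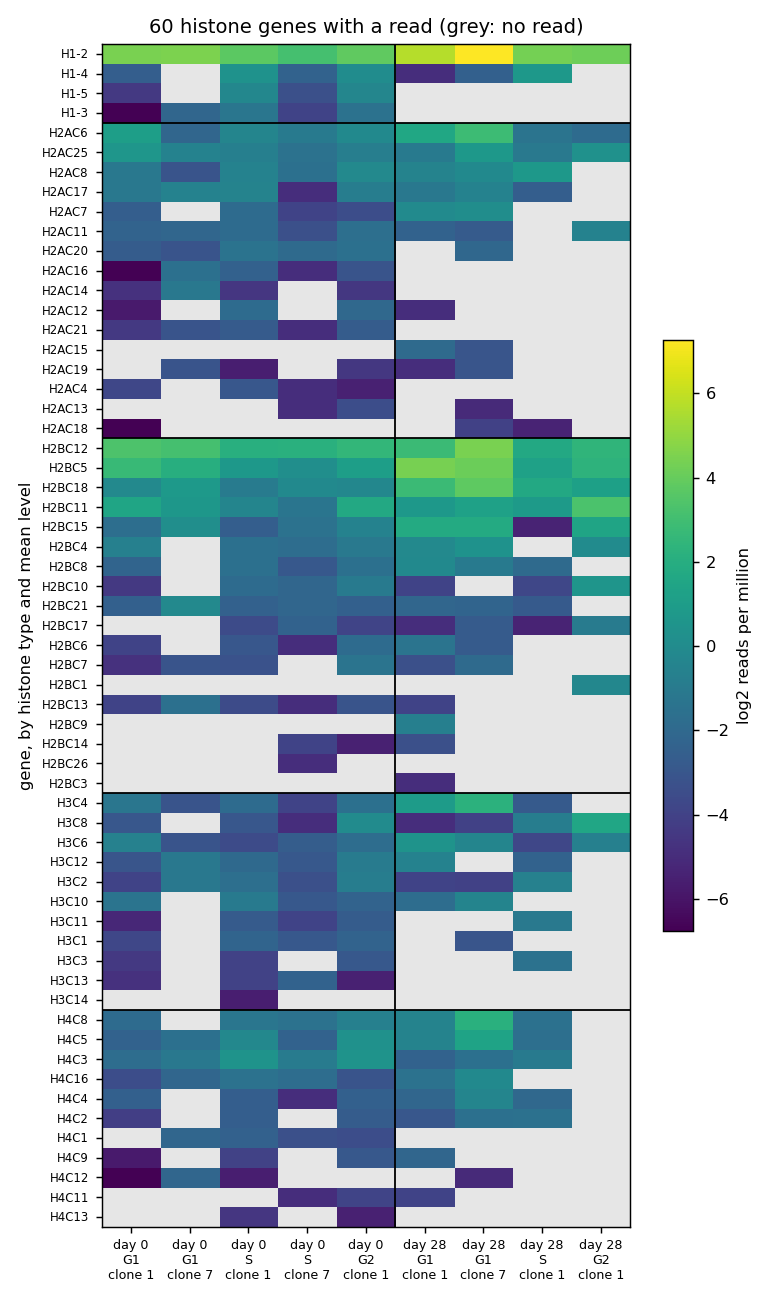
Level of the 60 histone genes with a read, as log2 RPM, with libraries in columns and genes in rows ordered by histone type and mean. Grey cells had no read: 52 members had reads in the day 0 G2 library and 15 in the day 28 G2 library.

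A gene entered the tests where its mean log2 value reached 7.01, which is what 10 reads give in the library with the fewest reads. That left 12391 genes and 5 members: H1-2, H2BC12, H2BC5, H2BC18 and H2BC11. H2BC11 lay just inside at 7.51 and H2AC6 just outside at 6.45. The other 63 members are described by their reads.

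H1-2 (ENSG00000187837, chr6:26055787-26056428, minus strand, GRCh38) encodes a linker histone that binds DNA where it enters and leaves the nucleosome. Its reads at day 0 came to 22.0 and 22.5 RPM in G1 (clones 1 and 7), 13.4 and 8.69 RPM in S and 14.6 RPM in G2. At day 28 they came to 52.6 and 155 RPM in G1, 20.2 RPM in S and 18.3 RPM in G2. Both day 28 G1 libraries lay above every other library, while the day 28 S and G2 values lay within the day 0 range of all phases together. Within a phase, day 28 S lay above both day 0 S values. Day 28 G2 lay above day 0 G2 in RPM but not in the deposited log2 values (10.67 against 10.69). H1-2 rose at day 28 by 1.00 ± 0.36 (SE) on the log2 scale over all phases, with an adjusted p of 0.0334 by limma over 9 libraries, and by 1.69 ± 0.49 in G1 alone (adjusted p = 0.0311). In G1 the read ratio was 2.39 (2.25 to 2.55) in clone 1 and 6.87 (5.96 to 7.96) in clone 7.

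H2BC12 (ENSG00000197903, chr6:27146418-27146798, minus strand) and H2BC5 (ENSG00000158373, chr6:26158170-26158550, plus strand) encode core histone H2B. For H2BC5 the day 0 values were 6.48 and 4.08 RPM in G1, 1.63 and 1.12 RPM in S and 2.15 RPM in G2. Its day 28 values were 20.7 and 17.4 RPM in G1, 2.40 RPM in S and 4.92 RPM in G2. Each day 28 value of H2BC5 lay above the day 0 values of the same phase. H2BC5 rose by 1.12 ± 0.33 over all phases (limma adjusted p = 0.0136) and by 1.55 ± 0.44 in G1 (adjusted p = 0.0272).

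H2BC12 read 10.2 and 8.72 RPM in G1, 4.25 and 4.36 RPM in S and 5.68 RPM in G2 at day 0. After 28 days it read 6.95 and 21.9 RPM in G1, 3.33 RPM in S and 5.27 RPM in G2. The day 28 clones stood on either side of the day 0 G1 values. The difference over all phases was -0.24 ± 0.35 (limma adjusted p = 0.587) and in G1 0.06 ± 0.55 (adjusted p = 0.939), so neither passed, and its sign changed with the scaling or with 1 library left out. Of its 75-base windows 49.5% occur at no other annotated locus, so its reads could be split with near-identical H2B genes.

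**Figure D3:**
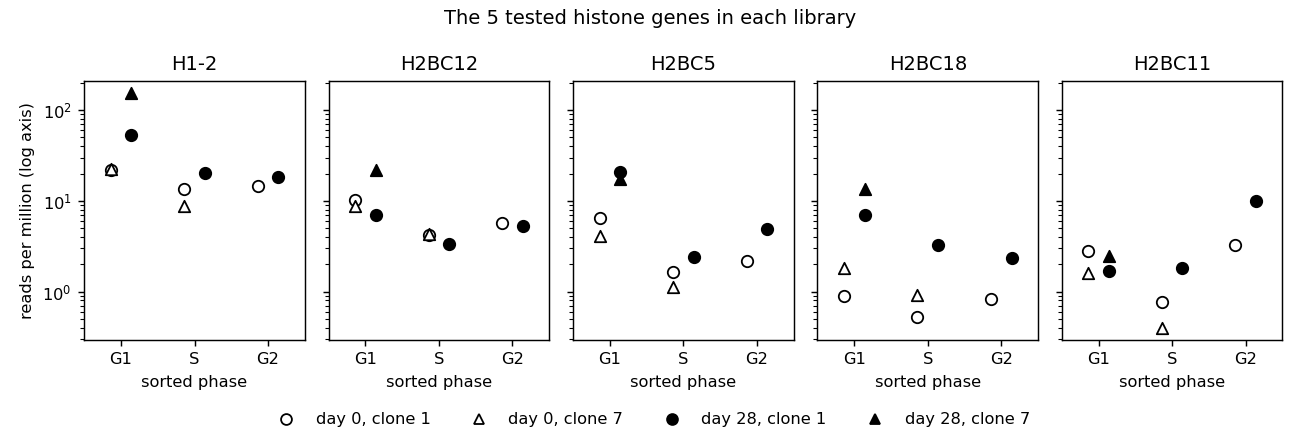
RPM (log axis) of the 5 tested genes by sorted phase, with day 0 open, day 28 filled, clone 1 as circles and clone 7 as triangles. H2BC18 has no overlap between days, and H2BC5 lies lower in S than in G1 at both days.

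H2BC18 and H2BC11 need care, since the row kept for each spans a long model with introns. For H2BC18 (ENSG00000203814) that row covers 29091 bases, chr1:149783233-149812323 on the minus strand. Its levels at day 0 were 0.902 and 1.81 RPM in G1, 0.529 and 0.925 RPM in S and 0.838 RPM in G2. At day 28 they were 7.01 and 13.6 RPM in G1, 3.26 RPM in S and 2.34 RPM in G2. The days did not overlap, and the span rose by 2.09 ± 0.49 over all phases (limma adjusted p = 0.00439) and by 2.59 ± 0.70 in G1 (adjusted p = 0.0243). Its log2 values were 6.44, 7.69, 5.66, 6.61 and 6.57 at day 0 and 7.70 to 10.1 at day 28. H2BC18 thus passed the filter of 7.01 through its day 28 libraries, and its day 28 calls are not independent of that filter. The 381-base histone exon row held 0 and 0 reads in day 0 G1, 6 and 4 in S and 11 in G2. It held 5 and 19 reads in day 28 G1 and 0 in both the S and G2 libraries, of span totals of 214, 456, 133 and 101. Most reads of this row thus lie outside the histone exon, and the rise is of the span. The row of H2BC15, with 439 reads and below the filter, likewise spans 13473 bases.

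The kept row of H2BC11 (ENSG00000124635, chr6:27126422-27132548, minus strand, 6127 bases) was highest in G2. It read 2.77 and 1.59 RPM in G1, 0.762 and 0.397 RPM in S and 3.28 RPM in G2 at day 0. The day 28 values were 1.67 and 2.45 RPM in G1, 1.84 RPM in S and 10.0 RPM in G2. The kept row held 432 reads in day 28 G2 and 145 in day 0 G2, and the separate row of the histone exon, chr6:27132370-27132750, held 14 and 40. The exon row reaches past the kept row, so its reads are not a share of the kept row's reads. In clone 1 S the exon row held 21 reads at day 28 and 22 at day 0. Its reads were thus fewer in G2 than in S at day 28 and more at day 0. The difference at day 28 was 0.60 ± 0.50 over all phases (limma adjusted p = 0.330) and did not pass.

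Over all phases, 3 of the 5 tested members rose at day 28 and 0 fell, beside 28.6% of all tested genes higher and 26.6% lower, or 55.1% in either direction. With median-of-ratios scaling 2 were called, since H1-2 no longer passed (adjusted p = 0.0563). In G1 the same genes, H1-2, H2BC5 and H2BC18, were the 3 called, beside 19.8% of all genes higher and 39% in either direction. Rises were thus common among all tested genes, and H2BC18 was tested only because its day 28 values were high. Leaving out single libraries ended the H1-2 call in 4 cases: untreated G1 of clone 1 (limma adjusted p = 0.0924) or clone 7 (0.0658), treated G1 of clone 7 (0.0685) and treated S (0.0649). H2BC5 lost its call without treated G1 of clone 1 (0.0570). Over all alternatives the adjusted p ran from 0.0103 to 0.133 for H1-2 and from 0.00183 to 0.0733 for H2BC5. In G1, leaving out 1 of the 4 libraries left 0 or 1 call by limma, and 0 without day 28 G1 clone 7.

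**Figure D4:**
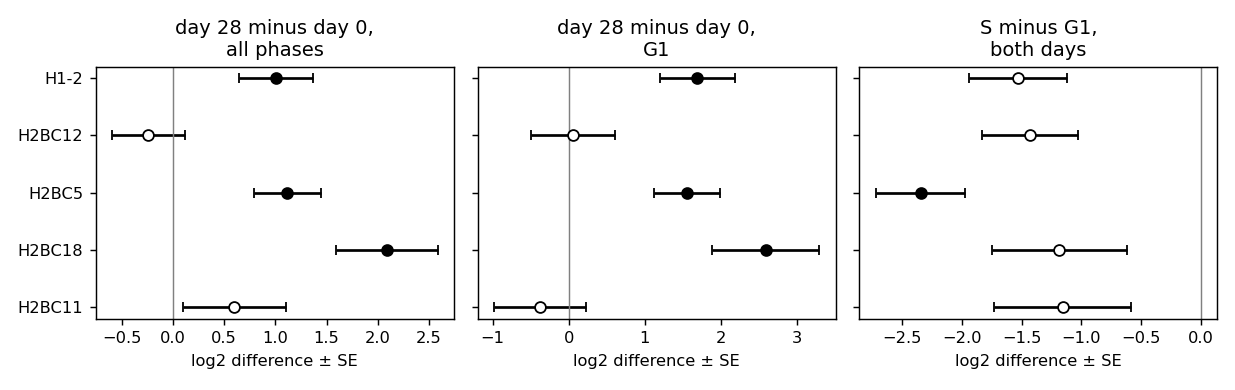
Log2 differences with their standard errors from limma for the 5 tested genes in 3 comparisons, filled where the adjusted p was under 0.05. H1-2, H2BC5 and H2BC18 are filled for day 28 against day 0, and H2BC5 for S against G1.

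S against G1 addresses the phase in which the untailed histone mRNA is made. H2BC5 fell in S by 2.34 ± 0.37 on the log2 scale over both days (limma adjusted p = 0.0241), with G1 libraries at 4.08 to 20.7 RPM and S libraries at 1.12 to 2.40 RPM. It was 1 of 5 genes called lower in S among 12391, or 0.0404%, beside 0.573% called higher and 0.613% in either direction. The other 4 tested members had negative differences that did not pass: H1-2 -1.53 ± 0.41 (adjusted p = 0.157), H2BC12 -1.43 ± 0.40 (0.185), H2BC18 -1.18 ± 0.56 (0.408) and H2BC11 -1.16 ± 0.57 (0.414). This H2BC5 call ended on leaving out untreated G2 (limma adjusted p = 0.0537), treated G2 (0.0569), treated G1 of clone 1 (0.113) or treated S (0.443), and over all alternatives its adjusted p ran from 0.00786 to 0.443. At day 0 alone limma called 0 of 5 members and 0% of all genes for S against G1, with 2 members, H2BC5 and H2BC11, at an unadjusted p under 0.05, and limma-voom on the recovered reads called 0.

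For G2 against S over both days, limma called 0 members and 0% of all genes, as did limma-voom. Clone 1 alone gave 98 genes and leaving out untreated G2 gave 22, with 0 members in either. H2BC11 alone had an unadjusted p under 0.05 (0.00185), with a difference of 2.74 ± 0.68 and an adjusted p of 0.432. That value is of the kept row. The histone exon row of H2BC11 held 14 reads in day 28 G2 and 21 in day 28 S, and 40 and 22 in clone 1 at day 0. A term for a day 28 difference that is unlike in G1 and in the other phases called 0 of 5 members and 0% of genes by limma, with 0 members at an unadjusted p under 0.05, and limma-voom called 0. Over all genes that term called 152 with clone 1 only, 56 without treated G1 of clone 1 and 51 with entries without a read set to 0 and no filter, with 0 members in each.

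Below the filter, the other H1 genes with reads, H1-3, H1-4 and H1-5, also encode linker histones. Together they had 24 and 2 reads in day 0 G1 (0.221 and 0.227 RPM), 121 and 11 in S (2.56 and 0.364 RPM) and 98 in G2 (2.22 RPM). At day 28 they had 1 and 6 reads in G1 (0.0328 and 0.179 RPM), 67 in S (1.64 RPM) and 0 in G2. In clone 1 they were thus higher in S than in G1 at both days, by 11.6 times (7.43 to 18.8) at day 0, while H1-2 was 0.610 times (0.558 to 0.666) its G1 level. In clone 7 at day 0 the S to G1 ratio was 1.60 (0.350 to 14.9), which the depth does not resolve. H1-4 held all 67 reads of the day 28 S library, and H1-3 and H1-5 had 0 reads in the 4 day 28 libraries.

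H2A genes encode the core histone paired with H2B. Their sum was 5.28 and 3.06 RPM in day 0 G1, 4.53 and 1.78 RPM in S and 4.46 RPM in G2. At day 28 it was 6.26 and 12.3 RPM in G1, 2.69 RPM in S and 2.23 RPM in G2. Day 28 G2 was 0.500 times (0.387 to 0.641) day 0 G2, and day 28 S 0.595 times (0.468 to 0.752) day 0 S in clone 1. Of the 17 H2A genes, 3 had reads in day 28 G2 and 5 in day 28 S, against 14 and 13 in clone 1 at day 0. Low counts were scarce over all genes in these 2 day 28 libraries, as given below. H2AC6 (chr6:26124233-26124625) led with 231 and 2 reads in day 0 G1, 37 and 15 in S and 41 in G2, then 94 and 241 in day 28 G1, 16 in S and 12 in G2. H2AC25 (chr1:228457425-228457817) had 166 and 6 reads in day 0 G1, 29 and 11 in S and 26 in G2, then 15 and 56 in G1, 19 in S and 54 in G2. H2AC8 (chr6:26216975-26217367) had 49, 1, 32, 10 and 40 reads in the day 0 libraries in the same order, and 22, 31, 67 and 0 at day 28. Of these 3, H2AC6 was highest in RPM in day 28 G1 clone 7, at 7.19 RPM, and H2AC8 in day 28 S, at 1.64 RPM.

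H3 and H4 form the core tetramer of the nucleosome. The H3 sum was 1.98 and 1.13 RPM in day 0 G1, 2.05 and 1.02 RPM in S and 3.44 RPM in G2, then 4.39 and 6.56 RPM in day 28 G1, 2.47 RPM in S and 3.57 RPM in G2. H3C4 (chr6:26196840-26197250) was at 0.423 and 0.113 RPM in day 0 G1 and at 1.93 and 4.80 RPM in day 28 G1, with 0 reads in day 28 G2. H3C8 (chr6:26270974-26271384) had 44 reads in day 0 G2 and 127 in day 28 G2, against 0 to 23 in the other 7 libraries. H3C6 (chr6:26225155-26225565) ranged from 1 to 73 reads and was highest in RPM in day 28 G1 clone 1, at 1.38 RPM. The members of 1 type thus peaked in different libraries.

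H4 genes summed to 1.12 and 1.47 RPM in day 0 G1, 3.66 and 1.55 RPM in S and 4.05 RPM in G2. In day 28 the sums were 2.65 and 9.49 RPM in G1, 1.74 RPM in S and 0 in G2. In clone 1 at day 0, S was 3.26 times (2.57 to 4.14) G1, and in clone 7 it was 1.05 times (0.561 to 2.12). At day 28 in clone 1 the order was the other way, with S at 0.655 times (0.469 to 0.912) G1. The 0 of 43.1 M reads in day 28 G2 allow up to 0.0856 RPM by the exact 95% counting interval, against 179 reads in day 0 G2, though no detected member below the filter had under 12 reads in that library. H4C8 (chr6:26285188-26285499), H4C5 (chr6:26204645-26204956) and H4C3 (chr6:26103948-26104259) led the type with 276, 249 and 214 reads in all. H4C3 was at 1.35 and 1.38 RPM in clone 1 S and G2 at day 0, at 0.294 and 0.453 RPM in day 0 G1 and at 0.197 and 0.328 RPM in day 28 G1, whereas H4C8 reached 4.50 RPM in day 28 G1 clone 7.

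**Figure D5:**
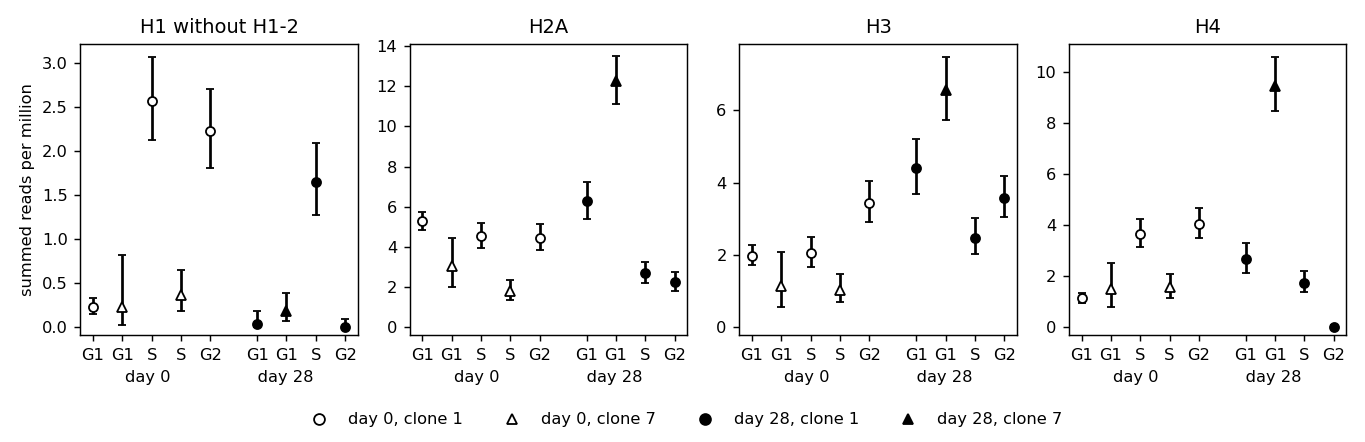
Summed RPM of 4 sets in each library, with 95% counting intervals, day 0 open and day 28 filled, clone 1 as circles and clone 7 as triangles. H1 genes other than H1-2 are high in 3 clone 1 libraries, day 0 S and G2 and day 28 S, and H4 is at 0 in day 28 G2.

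How many members had a read differed between libraries. Reads were found in 47 and 29 members in day 0 G1, 51 and 45 in S and 52 in G2, and in 41 and 37 in day 28 G1, 28 in S and 15 in G2. Over all genes, those with 1 to 5 reads numbered 1410 to 2035 in the other 7 libraries, 707 in day 28 S and 474 in day 28 G2. In day 28 G2 the 10 detected members below the filter had a median of 40 reads and none had under 12, against medians of 2 to 13 elsewhere. Of all 20460 genes, 3777 had no read in day 0 G2 and 3886 in day 28 G2. In S of clone 1 they numbered 4276 at day 0 and 3643 at day 28. Of 1917 other genes under 1 kilobase, 30.6% had reads in day 0 G2 and 24.1% in day 28 G2. In clone 1 S the shares were 31.3% and 28.2%. The part of the scarce low counts in the low numbers of members, and in the H1, H2A and H4 values, was not tested. H2BC1, known as a testis H2B gene, had 36 reads, all in day 28 G2, and its neighbour H2AC1 had 0.

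Many H2A and H2B genes lie head to head and share the stretch between them. In 12 such pairs the kept spans were 303 to 523 bases apart. The 523 is that of H2BC11 and H2AC11, where the histone exon of H2BC11 reaches past its kept row towards H2AC11. In the other pairs the distance was 303 to 381. H2BC12 held 3077 reads and its partner H2AC12 27, while H2BC4 held 231 and H2AC6 689. For H2AC25 and H2BC26 the counts were 382 and 1, and for H2BC21 and H2AC20 72 and 67. The more read gene was the H2B in some pairs and the H2A in others.

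The stretch of 250 bases before the annotated start was taken from RefSeq (GRCh38.p14) for the 63 members it lists. Whether these bases bear on the day 28 differences was not tested. Motifs were searched on both strands. TATAAA, the TATA box, was present in 66.7% of members and 11.01% of 27242 other entries, and CCAAT in 84.1% and 32.9%. The octamer ATTTGCAT was present in 77.8% of H2B, 68.8% of H2A and 1.57% of other entries, and AAACACA, an H1 box, in all 5 H1 genes and 4.94% of others. CCAAT was present in every listed H1, H2A, H2B and H3 gene and in 23.1% of H4 genes. The stretches of the 3 leading genes are printed 5′ to 3′ on the gene's strand, with the matches on either strand in capitals.
H1-2 chr6:26056471-26056720, minus strand: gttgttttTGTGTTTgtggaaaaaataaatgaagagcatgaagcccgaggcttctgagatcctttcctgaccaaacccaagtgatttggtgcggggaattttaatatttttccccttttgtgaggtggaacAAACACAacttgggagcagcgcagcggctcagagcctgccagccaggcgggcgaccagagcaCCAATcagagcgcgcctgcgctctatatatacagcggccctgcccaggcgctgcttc
H2BC5 chr6:26157871-26158120, plus strand: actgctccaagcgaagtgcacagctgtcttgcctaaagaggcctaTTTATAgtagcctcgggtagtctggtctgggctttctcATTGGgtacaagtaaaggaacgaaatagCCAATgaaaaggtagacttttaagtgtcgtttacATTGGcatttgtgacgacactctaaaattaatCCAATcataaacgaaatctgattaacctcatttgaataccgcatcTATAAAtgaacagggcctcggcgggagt
H2BC12 chr6:27146859-27147108, minus strand: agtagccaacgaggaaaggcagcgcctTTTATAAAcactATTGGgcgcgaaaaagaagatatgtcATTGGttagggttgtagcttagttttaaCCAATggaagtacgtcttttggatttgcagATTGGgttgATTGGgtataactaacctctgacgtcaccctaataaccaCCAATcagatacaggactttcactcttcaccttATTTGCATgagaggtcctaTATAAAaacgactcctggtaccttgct
H1-2 holds AAACACA and CCAAT. H2BC5 holds TATAAA and CCAAT without the octamer, and H2BC12 holds the octamer as well. Only exact matches were sought, and a match is a run of letters and not a measured site.

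RefSeq gene ends were compared with the reads, as bases past the end of the kept coding span. In 6 members (H2BC12, H2BC5, H2BC4, H2BC21, H3C6 and H4C15) that distance was above 1000 bases. Examples are 16332 in H4C15, which had 0 reads, 12799 in H2BC5 and 8125 in H2BC12. The median of the 6 was 212.5 reads, against 35.5 in 60 members whose gene ends nearer. H2BC11 and H2BC15, with 1148 and 439 reads, are in neither set, since their kept spans run past the RefSeq end. H2BC18, with 1108 reads, is among the 60, at 544 bases past its kept span of 29091 bases and not past its histone exon. Where these genes fall thus depends on the row kept. Most of the 6 are H2B genes, and GENCODE gives long ends to some of the 60 as well. Its transcripts run 1187 bases past the stop in H2AC6 (689 reads), 1082 in H4C5 (249), 1960 in H2BC26 (1) and 1209 in H3C15 (0). The 2 annotations thus differ on which genes have long ends. H1-2 ends 47 bases past the stop, so the most read member is not among those with a long annotated end. Of 63 members with windows, 6 (H3C14, H3C15, H4C11, H4C12, H4C14 and H4C15) had no 75-base window found at a single annotated locus, and these had 0 to 6 reads. Their values are uncertain, since reads of identical copies could have been split or dropped.

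The proteins that make and handle histone mRNA were read from lists of related genes. SLBP, the stem-loop binding protein, was at 115 and 92.2 RPM in day 0 G1, 83.1 and 67.6 RPM in S and 36.0 RPM in G2. At day 28 it was at 41.3 and 40.4 RPM in G1, 60.5 RPM in S and 32.5 RPM in G2. SLBP fell by 1.02 ± 0.24 at day 28 over all phases (limma adjusted p = 0.00407). NPAT, the histone gene coactivator, rose by 0.72 ± 0.22 (adjusted p = 0.0172), and CASP8AP2, a partner of histone processing, by 0.89 ± 0.28 (adjusted p = 0.0173). Among 34 tested genes of histone transcription and 3′ processing, 6 were higher and 16 lower, with a median difference of -0.30 beside 0.01 for all genes, of which 28.6% were higher and 26.6% lower. CPSF2 (-1.81), CSTF2 (-1.63), LSM11 (-1.43) and LSM10 (-1.37), parts of cleavage complexes or the U7 particle, changed most. Of 13 genes for histone mRNA decay, 6 were higher, with the exonuclease XRN1 (1.68), SMG1 (1.48) and the decapping enzyme DCP2 (1.31) in the lead, and 4 lower, with PNPT1 at -1.30, and the median was -0.18 over all phases and -0.40 in G1, beside the same 28.6% higher and 26.6% lower over all genes.

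Of 28 histone chaperone genes, 4 were higher and 13 lower at day 28 (median -0.59), beside 28.6% and 26.6% of all tested genes. UBN2 rose by 2.17, and MCM2, NAP1L1 and CHAF1B fell by 1.68, 1.54 and 1.45 on the log2 scale. Of the 11 tested replication-independent histone genes, whose mRNAs carry poly(A) tails, 0 were higher and 8 lower (median -1.07), beside the same shares. CENPA, the centromere H3, fell by 2.38, H2AZ1 by 1.88, H2AX by 1.23, H3-3B by 1.07 and H3-3A by 0.94. H2AX, which makes both stem-loop and tailed mRNA, was at 18.5 and 9.52 RPM in day 0 G1 and at 3.80 and 2.89 RPM in day 28 G1, where H1-2 was highest. In S against G1, CENPA (3.22 ± 0.54, limma adjusted p = 0.0259) was the 1 called histone of that list, and H2AX had 2.13 ± 0.46 (adjusted p = 0.0758).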

How the data were processed

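Poly(A) RNA-seq of 9 libraries was analysed. The deposited table holds log2 values per coding transcript. HISAT2 2.1.0 and the build GRCh38 are named in the submitters' processing notes. The counter and scaling are not given in the sources used here. From the values, 100% of entries up to 1000 reads are whole reads (tolerance 0.05) multiplied by a factor of the library, and an entry without a read holds 0.9 reads. These reads gave RPM and sums. Gene coordinates come from the deposited table, transcript sequences from GENCODE v29, and promoter coordinates and gene ends from RefSeq. There were 0 columns of other samples. Depth was 8.83 to 108.7 M (mega) reads per library, so 10 reads in the shallowest carries a wide counting error.

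Tests used log2(value + 1) and limma 3.58.1 (R 4.3.3; linear fit, empirical Bayes, trended) on 12391 genes, with Benjamini-Hochberg adjusted p under 0.05. Day and phase were additive terms, and 6 group means served S against G1 at day 0 and day 28 in G1, where groups of 1 library took the pooled spread. On simulated data for day 28 against day 0 the test was checked for recovery. Other tools were data.table (1.17.8), matplotlib 3.10.9, scipy 1.17.1, pandas 2.3.3 and numpy 2.4.6 under Python 3.11.15. Samples of a clone share its number. Clone deviations correlated at 0.653, 0.115 and 0.296 between group pairs, which is weak evidence of pairing for the lower values. The clone numbers were used as pairing in the ratios within a clone and in the alternative with clone as a replicate block. The main tests held no clone term, so their p-values do not use the pairing. In the fits of 6 group means the residual spread comes only from differences between the clones within a group.

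The members and lists were chosen with earlier results of these data known. Named were every tested member, the 3 highest members of each type, members at 0, SLBP, NPAT, CASP8AP2, H2AX, H2AZ1, H3-3A and H3-3B, and up to 4 largest called changes of each list. A few single genes that the rule names are not reported here. Other members were named after their values were seen. Alternatives covered scaling, filter, pseudocount, clone block, left-out libraries, row choice and limma-voom, and entries without a read set to 0 were added after seeing the data.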

Additional observations from a re-analysis of the deposited data

How the results depend on the processing

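Of 5 tested members, 3 were called for day 28 against day 0 over all phases, 2 with median-of-ratios scaling and 1 in clone 1 only, and leaving out 1 library gave 2 to 3. The lowest row per gene left 3 tested members and 2 calls. With no filter all 68 members were tested and 5 were called (3 higher, 2 lower). Over all 20460 genes 8332 were called (4980 higher, 3352 lower). With entries without a read set to 0 as well, 6 members were called (2 higher, 4 lower), beside 7278 genes (4424 higher, 2854 lower). For S against G1 the 1 call became 0 with such entries set to 0 and no filter, and 0 to 1 with 1 library left out, and for day 28 in G1 the 3 calls became 0 to 3. H2BC12 changed sign over all phases, from -0.24 to 0.098 with limma-voom and to 0.0055 without day 28 G1 clone 1 (-0.59 to 0.0055 over single libraries left out), and in G1, from 0.058 to -0.028 with median-of-ratios scaling and to -0.76 without day 28 G1 clone 7 (-0.76 to 0.88). The cause was not tested. The clone as a replicate block gave 3, 1 and 3 calls in these comparisons, changed no call, and gave 0 in the others. Clone 1 alone could not be fitted for the group means.

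Summed RPM of all members in G1, S and G2 (mean of the clones where there are both) was, with median-of-ratios scaling, 55.2, 31.2 and 53.0 at day 0 and 148, 35.9 and 46.9 at day 28. With the deposited scaling it was 54.2, 29.4 and 51.6, then 153, 37.7 and 49.3, and with the lowest row per gene 46.0, 27.4 and 40.3, then 162, 35.5 and 38.6. The day 28 G2 sum was thus above that of day 0 with the reported scaling and rows and below it in these 3 settings. A further setting left out the member of each type with the highest mean log2 value (H1-2, H2AC6, H2BC12, H3C6 and H4C5). The sum was then 16.3 in day 0 G1, 11.8 in day 0 S and 21.0 in day 0 G2. At day 28 it was 51.1 in G1, 15.8 in S and 28.8 in G2. limma-voom differs in input, weights and scaling at once, and with it the median day 28 difference of all genes was 0.29 in place of 0.01 and the calls 4647 higher and 2200 lower in place of 3538 and 3291. Depth limits the 63 members with a mean log2 value under 7.01, which were not tested.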
